A study of Mus musculus with 23 samples.

Results

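Frame-shifting skipped exons are exons that are left out of some transcripts of a gene and whose length is not a multiple of 3 nucleotides. They were taken from the authors' list of splicing events in mouse skeletal muscle by 2 criteria only, the event type and the length, with 8 genes left out (Neb, Lss, Mvk, Dtnb, Ank1, Hectd2, Rnf111 and Pcgf5). This gave 48 distinct exons of the 252 distinct events in the table, each in a gene of its own. The same criteria with a length divisible by 3 gave 54 distinct exons, called frame-keeping here and used for comparison.

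RNA sequencing covered skeletal muscle of 23 male mice, and which muscle was taken and the age of the mice are not given in the labels. The diets were studied in NZO/HIBomDife mice, an obese, diabetes-prone strain, in groups of 5 fed ad libitum, 5 on intermittent fasting and 3 on caloric restriction. Exercise was studied in the lean inbred strain C57BL/6J, with 5 sedentary and 5 exercised mice, so the exercise comparison differs from the others in strain as well as in intervention. Caloric restriction and intermittent fasting are both set against the same ad libitum mice. The comparisons ask which exons are included more or less often in muscle after each intervention.

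Messenger RNA is read in codons of 3 nucleotides. Leaving out an exon whose length is a multiple of 3 removes amino acids and keeps the codons that follow, whereas leaving out any other coding exon changes every codon after it and commonly brings in an early stop codon. Transcripts with such a stop are often destroyed by nonsense-mediated decay, a surveillance pathway that acts during translation, and in other cases give a shortened protein. Skipping an exon in an untranslated part of the transcript, or in an RNA that makes no protein, has no such consequence. Whether the exons described here are coding was not determined, so frame-shifting refers to length alone.

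Inclusion is given as PSI, the proportion of transcripts that contain the exon, on a scale from 0 to 1. All levels below are the authors' own, 1 per group, so no error between mice can be attached to them and the read depth behind them is unknown. The authors' deposited table holds only events that differ by 0.2 or more between groups, in either direction, with 0.9 or more as the probability of a difference. For the frame-shifting exons that probability lay between 0.902 and 0.995 in the authors' deposited table. The table gives no gene expression, so the tissue label could not be checked against muscle markers. Positions are mm10 coordinates.

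The exon of Rnf146, a ubiquitin ligase that recognises poly-ADP-ribose, shows how a listed stretch sits in the genome. It is the single frame-shifting exon whose ends could be read in the reference sequences used here, because a RefSeq promoter window of the gene Gm30698 (GRCm38.p6, the assembly of mm10) covers it. It has 61 nucleotides, on the minus strand, at chr10:29361285-29361345. The 20 bases around each end are shown 5′ to 3′ on the strand of Rnf146, with the last 2 bases of the intron before the exon and the first 2 bases of the intron after it in capitals.
Rnf146 upstream end: ttttttaaAGagaaagggct
Rnf146 downstream end: ctataattagGTaagatgtt
The capitals are AG and GT, the usual borders of an intron, so for this exon both listed positions belong to the exon and its length is end minus start plus 1. Its inclusion level was 0.546 ad libitum and 0.215 under caloric restriction.

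Both directions were listed in each comparison. Under caloric restriction, 7 of 17 frame-shifting exons were higher and 10 lower than ad libitum, against 52.6% higher over all listed events of that comparison. Under intermittent fasting, 5 of 15 were higher and 10 lower, against 39.2% higher over all listed events. After exercise, 8 of 17 were higher and 9 lower than in sedentary mice, against 48.6% over all listed events. Among frame-keeping exons 12 of 30, 6 of 13 and 2 of 12 were higher in the same order. For exercise neither direction clearly prevailed, as 6 of the 11 class 1 exons and, with the left-out genes put back, 9 of 18 were higher. Among class 1 exons 4 of 13 were higher under caloric restriction and 2 of 11 under intermittent fasting. With the left-out genes put back these were 8 of 18 and 6 of 18. Of the exons with a probability of 0.95 or more in the authors' deposited table, 3 of 6, 1 of 1 and 2 of 4 were higher in the order above. No test was run on these counts, because events of a called list are not replicates of a condition.

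The frame-shifting exons had a median absolute difference of 0.352 in the caloric restriction list, 0.317 in the fasting list and 0.2998 in the exercise list. Over all listed events the medians were 0.352, 0.355 and 0.315. The smallest differences lay just inside the authors' limit, at 0.201 for Sgsm2, 0.203 for both Gpr137 and Gpatch2l, and 0.221 for Zfp809.

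**Figure D1:**
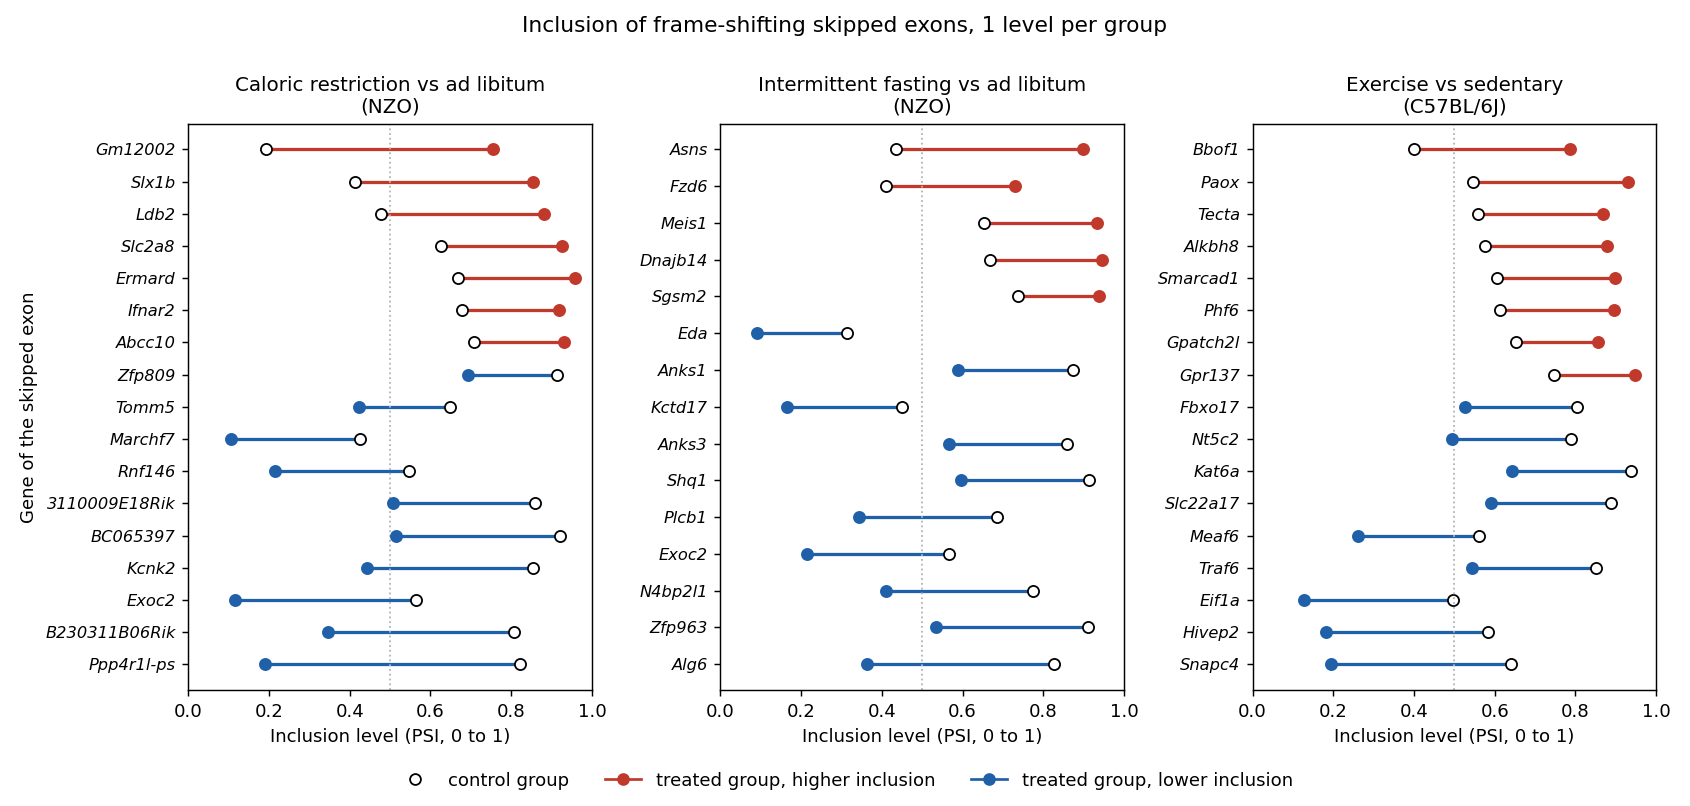
Inclusion level (PSI, horizontal axis from 0 to 1) of every frame-shifting skipped exon in the control group (open circles) and the treated group (filled circles), 1 panel per comparison and 1 line per gene. Red lines (7, 5 and 8 exons) run to higher and blue lines (10, 10 and 9 exons) to lower inclusion, and the dotted line marks a level of 0.5.

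The exons that were higher and those that were lower started from different levels. A limit of 0.2 on a scale from 0 to 1 itself favours such a contrast. Over all listed events the control median was 0.317 for higher and 0.746 for lower values. All 20 frame-shifting values with higher inclusion ended at 0.730 or above in the treated group, and 17 of them above 0.8. They had a median of 0.609 in controls and 0.898 after treatment. The 29 lower values had a median of 0.804 in controls and 0.409 after treatment. Only Gm12002 started below 0.3, at 0.192, which makes 1 of 49 values (2.04%), against 6 of 55 for frame-keeping exons (10.9%) and 35 of 133 for introns and splice-site events (26.3%). In 32 of the 49 values the exon was included above 0.8 in at least 1 group, against 28 of 55 for frame-keeping exons and 44 of 133 for introns and splice-site events. Both levels lay below 0.5 for 4 exons, those of Marchf7, Kctd17, Eda and Eif1a. These levels restrict the direction: 16 of the 49 values started within 0.2 of 0 or 1 and could be listed one way only, of which 15 were lower. Over all listed events 96 of 265 values started so, of which 54 were lower. Among the other frame-shifting values 19 were higher and 14 lower.

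**Figure D2:**
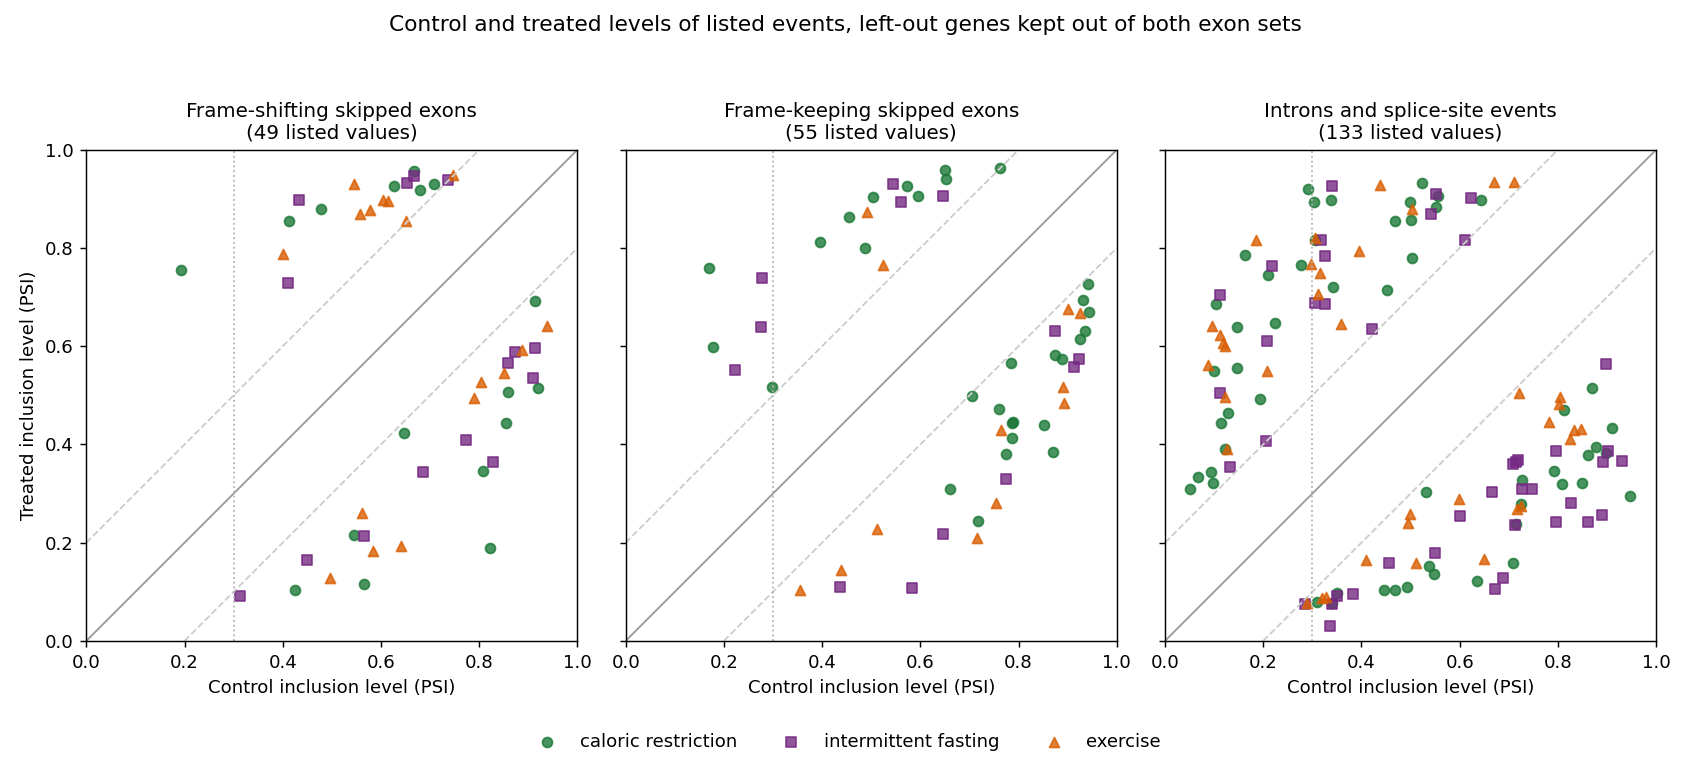
Control level (horizontal) against treated level (vertical), both as PSI from 0 to 1, for frame-shifting exons, frame-keeping exons, and introns and splice-site events, with a symbol for each comparison. The solid line marks equal levels, dashed lines a difference of 0.2, and the dotted line a control level of 0.3, left of which lie 1 of 49, 6 of 55 and 35 of 133 values.

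A change of the majority form, with levels on opposite sides of 0.5, was listed for 20 values. Caloric restriction had 9 of them, intermittent fasting 6 and exercise 5. They were 14 exons that went from above to below 0.5 and 6 that went from below to above it. Over all listed events 144 of 265 values crossed 0.5, 85 of them downward and 59 upward. By list these were 60 of 114 under caloric restriction, 48 of 79 under intermittent fasting and 36 of 72 after exercise.

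Exons of ubiquitin ligases and their adaptors were lower in 5 of 5 cases, beside 29 of 49 lower among all frame-shifting values and 139 of 265 over all listed events. The ligase genes Hectd2, Rnf111 and Pcgf5 are among those left out, and the frame-shifting exon of Hectd2 was higher under caloric restriction and after exercise, so the shared direction does not extend to it. The ligases attach ubiquitin to proteins and so mark many of them for degradation or signalling. Besides Rnf146, the RING-type ligase Marchf7 had an exon of 25 nucleotides at 0.425 ad libitum and 0.105 with caloric restriction. Kctd17, an adaptor of cullin 3 ligases, went from 0.449 ad libitum to 0.165 under intermittent fasting. In exercised C57BL/6J mice Traf6, a ligase of inflammatory receptor signalling, had 0.545 against 0.851 in sedentary mice, and the F-box protein Fbxo17 had 0.527 against 0.804. Of the dietary exons, that of Rnf146 thus went from above to below 0.5, while those of Marchf7 and Kctd17 lay below 0.5 in both groups. The exercise exons started above 0.8 and stayed in the majority. The grouping by function was made with the directions known, so the count of 5 is a description.

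Transcription factors and chromatin proteins formed the largest group, with 9 genes, 4 higher and 5 lower. The exercise list held 5 of them. Hivep2, a zinc finger transcription factor, had 0.583 in sedentary and 0.183 in exercised muscle (chromosome 10, 14117519 to 14117600), at a place where the long non-coding RNA gene Gm51759 overlaps it and reads may not be separable. Kat6a, a histone acetyltransferase, and Meaf6, a subunit of the complex that Kat6a works in, were both lower after exercise. The Kat6a exon of 86 nucleotides (chromosome 8, 22861517 to 22861602) was included at 0.937 and 0.642. The Meaf6 exon of 58 nucleotides (chromosome 4, 125107652 to 125107709) had levels of 0.561 and 0.261. Both are among the 14 of 49 frame-shifting values of class 2 in the authors' deposited table, a confidence class whose meaning is not stated.

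The other 2 exercise exons of this group were higher. Smarcad1, a chromatin remodeller, had 0.605 in sedentary and 0.898 in exercised muscle. Phf6, a PHD finger protein of the nucleus, had 0.614 and 0.896. The exercise exons of chromatin proteins thus ran both ways.

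Under the diets this group was also divided. Ldb2, a cofactor that binds LIM-domain transcription factors, had an exon of 143 nucleotides (chromosome 5, 44476493 to 44476635, minus strand) at 0.478 ad libitum and 0.880 under caloric restriction. Zfp809, a zinc finger protein that silences retroviral elements, had 0.913 and 0.692 in the same order. Under intermittent fasting the homeobox factor Meis1 had 0.652 ad libitum and 0.932 fasted, and the zinc finger protein Zfp963 had 0.910 and 0.535. Zinc finger genes of this kind have many similar copies, and whether reads were shared among copies is not stated, so the levels of Zfp809 and Zfp963 are uncertain.

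Transporters, channels and receptors were higher in 5 of 7 cases. Among all frame-shifting values 20 of 49 were higher, and over all listed events 126 of 265. This grouping too was made with the directions known, so the count is a description. Under caloric restriction Slc2a8, a glucose transporter of intracellular membranes, had an exon of 163 nucleotides (chromosome 2, 32981721 to 32981883, minus strand) at 0.627 ad libitum and 0.927 restricted. Abcc10, an ABC transporter, had 0.708 and 0.930, and Ifnar2, a chain of the type I interferon receptor, had 0.679 and 0.918. These 3 exons were present in most transcripts in both groups.

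Kcnk2, a background potassium channel, was the exception under caloric restriction, with 0.854 ad libitum and 0.444 restricted (chromosome 1, 189295594 to 189295711, minus strand). Fzd6, a receptor for Wnt ligands, had 0.411 ad libitum and 0.730 under intermittent fasting. After exercise the 28-nucleotide exon of Gpr137, an orphan receptor, had 0.949 against 0.746, and the 41-nucleotide exon of Slc22a17, a receptor for lipocalin 2, had 0.592 against 0.888.

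Metabolic enzymes had 4 exons, 2 higher and 2 lower. Asns makes asparagine from aspartate and is a known target of the amino acid starvation response. Its exon of 272 nucleotides (chromosome 6, 7689252 to 7689523, minus strand) had a level of 0.434 in ad libitum and 0.898 in fasted mice, with a probability of 0.989 in the authors' deposited table. It was the only fasting exon of this set that reached 0.95 there.

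The other fasting enzyme was Alg6, a glucosyltransferase that adds glucose to the lipid-linked sugar chain used in N-glycosylation, whose exon of 65 nucleotides (chromosome 4, 99742355 to 99742419) had 0.828 ad libitum and 0.364 fasted. After exercise Paox, a peroxisomal polyamine oxidase, had an exon of 490 nucleotides (chromosome 7, 140126326 to 140126815) at 0.545 in sedentary and 0.930 in exercised muscle. Nt5c2, a cytosolic nucleotidase acting on purine nucleotides, had 0.789 and 0.494. Fasting and exercise thus each held 1 exon of this group in each direction, and caloric restriction held none. The enzyme genes Lss and Mvk are among those left out. Under intermittent fasting the frame-shifting exon of Lss was lower (0.887 and 0.203) and that of Mvk higher (0.450 and 0.792).

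Genes of RNA and DNA processing gave 5 exons. Snapc4 is a subunit of the complex that activates transcription of small nuclear RNAs, and its exon (chromosome 2, 26378161 to 26378279, minus strand) had the largest difference of the exercise set, with 0.640 in sedentary and 0.194 in exercised muscle. Eif1a, a translation initiation factor, had 0.497 and 0.128. Alkbh8, which modifies the wobble position of transfer RNAs, had 0.577 and 0.878. The Eif1a level is uncertain because mice carry a closely similar gene on the X chromosome, and whether reads were shared is not stated.

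Under the diets 2 exons belonged to this group. Slx1b, a subunit of a nuclease that cuts branched DNA, had 0.414 ad libitum and 0.854 under caloric restriction. Shq1, an assembly factor of H/ACA ribonucleoproteins, had 0.913 ad libitum and 0.597 under intermittent fasting. Their directions were opposite.

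Trafficking, protein import and chaperone genes were divided, with 3 higher and 3 lower values in 5 genes. Exoc2, a subunit of the exocyst that tethers secretory vesicles to the plasma membrane, supplied the 1 exon listed in more than 1 comparison. This exon of 59 nucleotides (chromosome 13, 30946365 to 30946423, minus strand) had a level of 0.565 ad libitum in both blocks of the table, 0.116 under caloric restriction and 0.214 under intermittent fasting. Both comparisons use the same ad libitum mice, so they are not independent. The exon was not listed for exercise.

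The remaining genes of this group were listed once. Tomm5, a small subunit of the translocase of the mitochondrial outer membrane, had 0.647 ad libitum and 0.424 under caloric restriction, and Ermard, a protein of the endoplasmic reticulum membrane, had 0.668 and 0.958. Under intermittent fasting Dnajb14, a co-chaperone of the endoplasmic reticulum membrane, had 0.667 and 0.946. Sgsm2, a regulator of Rab GTPases, had 0.737 and 0.938. In Ermard, Dnajb14 and Sgsm2 the skipped form was thus a minority in ad libitum mice and rarer still under the diet.

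Signalling genes were represented under intermittent fasting by Plcb1, a phospholipase C that acts downstream of G proteins, with 0.685 ad libitum and 0.344 fasted, and by Eda, the ligand ectodysplasin, with 0.314 and 0.0912. Of the scaffold proteins with ankyrin repeats, Anks1 had 0.873 and 0.589 and Anks3 had 0.859 and 0.567 in the same order. N4bp2l1, to which no role is assigned here, had 0.774 and 0.409. All 5 of these exons were lower after fasting, beside 10 of 15 frame-shifting exons and 48 of 79 listed events of that comparison. They join signalling genes with genes outside the groups by function, so the count of 5 is a description.

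A few more exons belonged to genes outside these groups. In exercised mice 3 were higher, beside 8 of 17 frame-shifting exons and 35 of 72 listed events of that comparison. Bbof1, which orients basal bodies of cilia, had an exon of 494 nucleotides at 0.400 in sedentary and 0.788 in exercised muscle. Tecta, best known as a structural protein of the inner ear, had 0.558 and 0.868. Gpatch2l, with no role assigned here, had 0.652 and 0.855. The exon of 3110009E18Rik had 0.860 ad libitum and 0.507 under caloric restriction.

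In 4 genes no reading frame is at stake according to their RefSeq biotype, and all 4 were listed under caloric restriction. The pseudogene Ppp4r1l-ps (chromosome 2, 173590366 to 173590460, minus strand) had the largest difference of the whole set, with 0.821 ad libitum and 0.189 restricted, and its reads can be confused with those of related genes. The long non-coding RNA Gm12002 (chromosome 11, 12320339 to 12320429) had 0.192 and 0.755. B230311B06Rik had 0.807 and 0.346, and BC065397 had 0.921 and 0.514. These 4 include the 3 largest differences among the frame-shifting exons of that comparison. Gm12002 overlaps the protein-coding gene Cobl and BC065397 overlaps Glra4, so reads of the overlapping genes may not be separable. Without these 4 genes, 13 exons remained under caloric restriction, 6 higher and 7 lower, with a median absolute difference of 0.320.

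Of the 48 genes, 7 had a further listed event, and in 2 of them it directly adjoined the exon. In Eda the exon of 139 nucleotides (chromosome X, 100395675 to 100395813) is followed by an alternative 5' splice site stretch of 17 nucleotides. That stretch had 0.350 ad libitum and 0.0918 fasted, close to the 0.314 and 0.0912 of the exon. Together they span 156 nucleotides, a multiple of 3, so the longer form of this exon would keep the frame although the listed part does not. In N4bp2l1 an alternative 3' splice site stretch of 219 nucleotides adjoins the upstream side of the 79-nucleotide exon, with levels of 0.797 and 0.388. Here the sum of 298 is still not a multiple of 3.

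The other 5 genes had separate events. Alg6 had a second skipped exon of 186 nucleotides, 1335 nucleotides away, that was also lower under fasting (0.912 and 0.557), and skipping both would remove 251 nucleotides. Hivep2 had an exon of 75 nucleotides that was lower under caloric restriction (0.786 and 0.444). Zfp809 had an exon of 93 nucleotides that was lower after exercise (0.893 and 0.484). Ppp4r1l-ps had an exon of 453 nucleotides that was lower under fasting (0.583 and 0.108). In Ldb2 a 5' splice site stretch of 6 nucleotides was lower under fasting (0.726 and 0.309), while its frame-shifting exon was higher under caloric restriction. Lengths of these 5 further events are all multiples of 3.

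The frame-shifting exons had lengths from 25 to 494 nucleotides with a median of 95, and 40 of 48 measured between 50 and 200. Frame-keeping exons had a median of 82.5. Exons of at most 30 nucleotides were 2 of 48 among the frame-shifting and 5 of 54 among the frame-keeping. Those over 200 nucleotides were 5 of 48 (Asns, Paox, Bbof1, Traf6 and Fbxo17) and 4 of 54. A length that leaves 1 nucleotide over was found in 25 exons and one that leaves 2 over in 23. Of the skipped exons outside the left-out genes, frame-shifting ones made up 17 of 47 under caloric restriction (36.2%), 15 of 28 under intermittent fasting (53.6%) and 17 of 29 after exercise (58.6%). These shares were not tested.

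**Figure D3:**
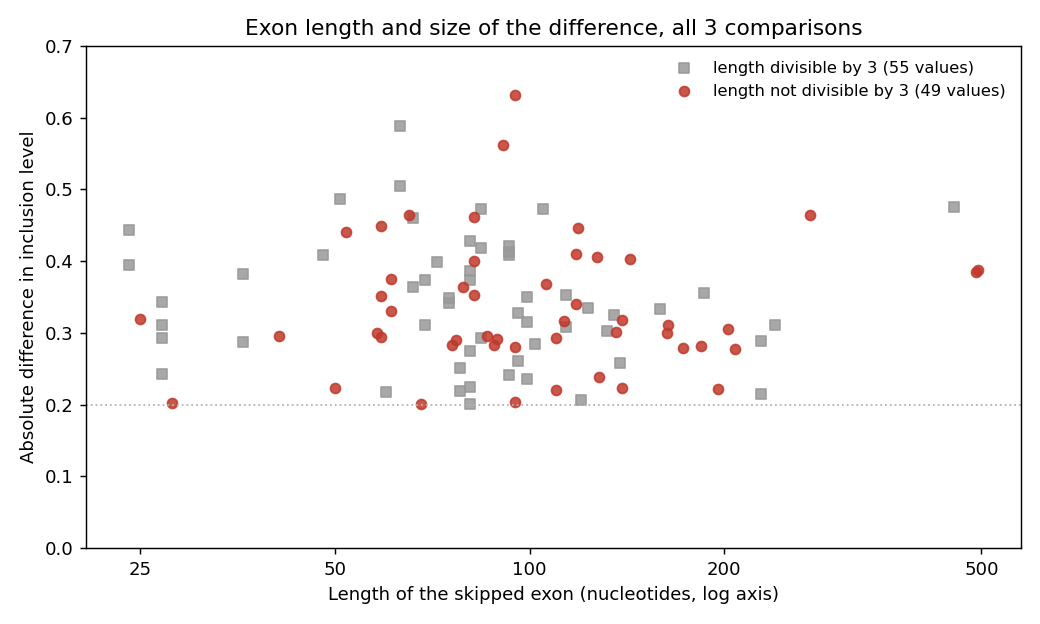
Length of each skipped exon in nucleotides (horizontal, log axis) against its absolute difference in inclusion level (vertical, from 0), for 49 values of frame-shifting (red circles) and 55 of frame-keeping exons (grey squares) over all comparisons. The dotted line is the authors' limit of 0.2, and the largest difference, 0.632, belongs to the exon of Ppp4r1l-ps.

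Positions within the genes were taken from RefSeq gene spans of GRCm38.p6, in which all 48 symbols were found. The exons were spread over 20 chromosomes and had a median position 57.2% of the way into the gene, against 63.8% for the 53 frame-keeping exons with a match. The first 10% of the gene held 6 frame-shifting exons, those of Slc2a8, Kat6a, Eif1a, Alkbh8, Rnf146 and Phf6, and 2 frame-keeping ones. The Slc2a8 exon began 200 nucleotides after the nearest RefSeq start of its gene. Further into their genes, at 34.5% and 58.3%, the exons of Gpr137 and Paox began 244 and 641 nucleotides after such a start. The last 10% held 6 frame-shifting exons, those of Eda, Anks3, Marchf7, Meis1, Fbxo17 and Smarcad1, and 5 frame-keeping ones. Exons near a gene's ends or near a further start may be untranslated, or may lie where a new stop codon comes late. Which of these holds was not determined.

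Class 2 events, in the authors' deposited table, were 14 of the 49 frame-shifting values (28.6%), 8 of 55 frame-keeping values (14.5%) and 12 of 133 introns and splice-site events (9.02%). By list the frame-shifting counts were 4 of 17 (caloric restriction), 4 of 15 (fasting) and 6 of 17 (exercise). For caloric restriction they were Slx1b, Kcnk2, Ermard and Ifnar2, and for fasting Zfp963, Fzd6, Meis1 and Dnajb14. For exercise they were Traf6, Alkbh8, Meaf6, Slc22a17, Kat6a and Smarcad1. The probability in the authors' deposited table was 0.95 or higher for 11 of 49, 16 of 55 and 54 of 133 values. None of these shares was tested.

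The genes were also counted in gene lists drawn up for muscle. Of 380 genes in 13 lists, 21 had any listed event and 3 had a frame-shifting exon, namely Exoc2 from the list for vesicle traffic and Hivep2 and Ldb2 from that for transcription and chromatin. Over all listed events, 48 of 221 genes had one. The 221 include left-out genes, 4 of which have a frame-shifting skipped exon that is not counted in the 48. The 22 genes of nonsense-mediated decay and the exon junction complex had no listed event of any type, from which nothing can be read because only 221 genes are listed at all. Splicing regulators had 5 genes with a listed event of 72, none of them a frame-shifting exon. Sarcomere and calcium handling (1 of 40 genes), insulin signalling and glucose metabolism (1 of 33), lipid metabolism and mitochondria (3 of 42) and cilium, centrosome and microtubules (3 of 34) also had events but no frame-shifting exon of this set. Frame-shifting exons of the left-out genes are not counted for any list. Markers of endothelial, immune, adipocyte, fibroblast, and satellite, Schwann and smooth muscle cells had no listed event. An absent gene was either unchanged, below the authors' limits or not measurable, and these cannot be told apart.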

How the data were processed

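RNA was extracted from muscle with a kit that also keeps small RNA and was treated with DNase, per the labels' protocols. Per the labels' design text, splicing was analysed with Whippet and rMATS. Not given in the sources used here are the tool behind each value, the aligner, versions and depth. Per the submitters' processing notes, mm10 was the genome build. The authors deposited 1 table of 3 blocks, which gives inclusion levels as a fraction from 0 to 1 with 1 level per group, a signed difference score (control minus treated), a probability and a confidence class score of 1 or 2. The deposited difference matched the levels on every row (largest gap 1e-05) and is turned here to treated against control. How mice were combined is not stated, and the deposited table holds called events only, and uncalled events were not analysed here.

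Counts, medians and shares were computed with Python 3.11.15, pandas 2.3.3, numpy 2.4.6 and scipy 1.17.1, and drawn with matplotlib 3.10.9. Groups were taken from the intervention label. No test was made, since no value per mouse was used here. The counting of lengths was tested on simulated exons. Symbols, biotypes, gene spans and the printed bases come from RefSeq tables of GRCm38.p6. Any exon of the set could be named, and levels are given for every one. The exons, the gene lists and the groups by function were chosen with earlier results of these data known. Limits on probability, difference and class, 1 event per gene, the counting of positions and the left-out genes were varied.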

Additional observations from a re-analysis of the deposited data

How the results depend on the processing

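Of 65 recomputed values, 51 stayed within 1.5 times the count or within the 95% binomial limits of the share or median, and 14 moved. These limits treat exons as independent draws, so they are only a yardstick and measure no spread between mice. Taking 1 event per gene could change no value, because each exon is in a gene of its own. Stricter limits leave fewer events by construction. At a probability of at least 0.95, 6 exons were left under caloric restriction (median absolute difference 0.445), 1 under intermittent fasting (Asns, 0.464, so 100% higher) and 4 after exercise (0.288). At a difference of at least 0.3 there were 11, 8 and 8, with a median of 0.377 after exercise. Dropping the smallest differences cannot lower the median, so this rise too follows by construction. Class 1 alone left 11 exercise exons. Reading positions as half-open turns other exons into frame-shifting ones, with 37 under caloric restriction, and of its 77 distinct exons 23 are among the 48. The bases around the Rnf146 exon do not bear out that reading. With the 8 left-out genes put back, 2 exons instead of 1 were listed in more than 1 comparison. Leaving out genes without a protein-coding biotype was added after seeing the data and moved no value past these limits. Such genes were listed under caloric restriction only, so the fasting and exercise values could not change. No paired analysis was possible because levels are given per group and not per mouse, and for the same reason no mouse could be left out. Depth limits every level by an unknown amount.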
